A study of Mus musculus with 12 samples.

Results

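Fatty acids that reach the liver are burned mainly in mitochondria. Very long chains and omega-oxidised chains are first shortened in peroxisomes, where Ehhadh, the bifunctional enzyme of peroxisomal beta-oxidation, carries out the hydration and dehydrogenation steps. The Cyp4a enzymes are cytochrome P450s of the endoplasmic reticulum that add a hydroxyl group to the far (omega) end of a fatty acid. Acot1 is a cytosolic thioesterase that splits long-chain acyl-CoA into free fatty acid and coenzyme A. In mouse liver, Ehhadh, Acot1 and Cyp4a14 are textbook targets of PPARalpha, the nuclear receptor that switches on fatty acid oxidation, while Cyp4a12a is known for its higher expression in males.

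The 5 genes described here are Ehhadh, Acot1, Cyp4a14, Cyp4a31 and Cyp4a12a. They were chosen by symbol from the 336 rows of the deposited table that compares high-fat diet (HFD) with chow, because they were lower on HFD there and varied among the chow-fed mice. Their levels in that comparison are therefore a description, and they support no test. Only Ehhadh of the 5 is a peroxisomal enzyme.

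All 12 mice of the series were PXR deficient and of the strain C57BL/6N, with 1 liver RNA library per mouse. PXR, the pregnane X receptor, is a nuclear receptor that responds to foreign compounds, and there was no group with intact PXR. In the comparison used here, 3 mice ate HFD and 3 mice ate regular chow for 18 weeks from the age of 6 weeks, with no treatment listed. The other 6 mice were also fed HFD and received 1 intraperitoneal injection a day on 4 days, of the PXR ligand PCN at 50 mg/kg in 3 mice or of 30% DMSO in corn oil in the other 3. The labels give no sex and do not describe the PXR allele. Nothing in them says whether mice shared a cage or litter.

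The tables hold raw counts of genes that the authors' own test had selected. Counts summed over the listed rows ran from 547431 to 920106 per mouse, and the full depth of the libraries is unknown. Levels below are normalized counts, that is, raw counts divided by the authors' size factors (0.829 to 1.14), which were recovered from their deposited mean. Of 10 general hepatocyte markers (such as Alb and Ttr) and 7 kidney proximal tubule markers, 0 are among the diet rows, so these lists could not be used to check the tissue. In bulk liver RNA, fewer cells of a type and less RNA per cell cannot be told apart. None of the 5 genes is among the 33 rows of the PCN table (0 of 5), so their levels after PCN or vehicle were not analysed here.

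The 3 Cyp4a genes lie in 1 cluster on chromosome 4 and resemble each other and their neighbours, which bears on how reads were assigned. The 45 coding bases around the heme-binding cysteine common to P450 enzymes are shown for the 3 Cyp4a genes and 3 others of the cluster. The remaining coding Cyp4a genes of the cluster were not aligned. The stretch was chosen because it lies in the active site and shows how closely the copies match. It runs from base 1333 to 1377 of the Cyp4a14 reading frame, counted from the start codon, and is written 5′ to 3′ from the GENCODE M21 transcripts (GRCm38). Capitals mark bases that differ from Cyp4a14.
Cyp4a14: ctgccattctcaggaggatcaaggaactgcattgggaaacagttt
Cyp4a31: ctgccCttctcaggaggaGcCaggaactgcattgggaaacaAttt
Cyp4a10: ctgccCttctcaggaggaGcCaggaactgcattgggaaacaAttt
Cyp4a32: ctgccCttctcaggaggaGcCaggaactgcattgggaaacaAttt
Cyp4a12a: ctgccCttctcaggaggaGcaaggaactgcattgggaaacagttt
Cyp4a12b: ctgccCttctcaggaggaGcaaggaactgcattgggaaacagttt

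In this stretch Cyp4a31, Cyp4a10 and Cyp4a32 were identical and differed from Cyp4a14 at 4 of 45 bases, and Cyp4a12a and Cyp4a12b were identical and differed from it at 2. Over the whole reading frame, Cyp4a31 shared 96.6% of aligned bases with Cyp4a10 and 96.0% with Cyp4a32. Cyp4a12a shared 98.5% with Cyp4a12b. Cyp4a14 stood further off, with 75.9% identity to Cyp4a31 and 75.8% to Cyp4a12a. Cut into overlapping windows of 100 bases, 35.8% of the Cyp4a12a transcript also occurs in Cyp4a12b. The share of 100-base windows also found in transcripts of other genes was 12.4% for Acot1 (chiefly Acot2, 95.5% identical in the reading frame), 7.33% for Cyp4a31 and 0 for Cyp4a14 and Ehhadh. The sources used here give neither the read length nor the treatment of reads that match several genes. The counts of Cyp4a12a, Cyp4a31 and Acot1 are therefore uncertain as counts of 1 gene alone, and those of Cyp4a14 and Ehhadh less so.

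Ehhadh (ENSMUSG00000022853) lies on the minus strand at chr16:21761287-21787807. An annotated small nuclear RNA gene, Gm24898, lies within its span on the other strand. Acot1 (ENSMUSG00000072949) lies on the plus strand at chr12:84009490-84018371. Within the chromosome 4 cluster, Cyp4a12a (ENSMUSG00000066071, plus strand) is at chr4:115299046-115332815, Cyp4a14 (ENSMUSG00000028715, minus strand) at chr4:115486200-115496142 and Cyp4a31 (ENSMUSG00000028712, plus strand) at chr4:115563649-115579015. These 3 span 279970 bases. The annotation places 8 protein-coding Cyp4a genes in the cluster, and 3 of them are among the diet rows. All coordinates are on GRCm38 and 1-based.

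All 5 genes were lower in HFD-fed than in chow-fed livers. The authors' test called 121 of about 24980 genes lower among the rows held, 0.484%, and by choice all 5 are among them. The size of the difference ran from 2.04-fold for Acot1 to 4.30-fold for Ehhadh (ratios of group means of normalized counts). In each of the 5, the highest HFD mouse lay below the lowest chow mouse, as in 35.7% of the diet rows (120 of 336). Since 121 of the 336 rows were lower on HFD, nearly every lower row shows this separation. The opposite, all HFD mice above all chow mice, held for 63.7% of the rows.

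Ehhadh had raw counts of 9045, 5639 and 5945 in HFD mice 659, 669 and 696, against 45189, 16108 and 19957 in chow mice 670, 695 and 707. In the same order of mice, the normalized counts were 8174, 6070 and 5228 on HFD, against 44152, 15463 and 24086 on chow. The groups did not overlap, but chow mouse 670 stood well above the other chow mice, at 2.86 times the level of mouse 695. The means were 6490 ± 1517 on HFD and 27900 ± 14720 on chow (SD, n = 3 each), a 4.30-fold lower level on HFD. In the authors' deposited table, whose folds are smaller in size than the ratios of means, the log2 fold change of Ehhadh was -1.61 (SE 0.24).

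Cyp4a14 was by far the most abundant of the 5, and only 1 other diet row had a higher mean count. Its raw counts were 34590, 21658 and 15235 in HFD mice 659, 669 and 696, against 98728, 55907 and 63805 in chow mice 670, 695 and 707. Normalized, these were 31258, 23313 and 13396 on HFD, against 96462, 53670 and 77005 on chow. Every chow mouse was above every HFD mouse, and here too mouse 670 was the highest on chow and mouse 659 the highest on HFD. The means were 22656 ± 8949 on HFD and 75713 ± 21425 on chow (SD, n = 3 each), 3.34-fold lower on HFD. The authors' deposited table gives a log2 fold change of -1.38 (SE 0.23).

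Cyp4a31, a much less abundant neighbour of Cyp4a14 in the cluster, had raw counts of 293, 157 and 109 in HFD mice 659, 669 and 696, against 782, 495 and 387 in chow mice 670, 695 and 707. Normalized, these were 264.8, 169.0 and 95.8 on HFD, against 764, 475 and 467 on chow. The HFD mice fell in the same order as for Cyp4a14, and the 2 lower chow mice were nearly level. It averaged 176.5 ± 84.7 on HFD and 569 ± 169 on chow (SD, n = 3 each), 3.22-fold lower on HFD. The lowest raw count of any of the 5 genes, 109 reads, was that of Cyp4a31 in HFD mouse 696. In the authors' deposited table its log2 fold change was -1.26 (SE 0.25).

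Cyp4a12a went with another order of mice. It had raw counts of 526, 745 and 692 in HFD mice 659, 669 and 696, against 913, 2807 and 1536 in chow mice 670, 695 and 707. Normalized, these were 475, 802 and 608 on HFD, against 892, 2695 and 1854 on chow. Chow mouse 670, the highest for the 3 preceding genes, was the lowest here and lay only 1.11 times above HFD mouse 669. The means were 629 ± 164 on HFD and 1814 ± 902 on chow (SD, n = 3 each), 2.89-fold lower on HFD. The authors' deposited log2 fold change for Cyp4a12a was -1.14 (SE 0.25).

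Acot1 showed the smallest difference. Its raw counts were 828, 742 and 582 in HFD mice 659, 669 and 696, against 1081, 1702 and 1247 in chow mice 670, 695 and 707. Normalized, these were 748, 799 and 512 on HFD, against 1056, 1634 and 1505 on chow. As for Cyp4a12a, mouse 670 was the lowest of the chow group and mouse 695 the highest. Acot1 averaged 686 ± 153 on HFD and 1398 ± 303 on chow (SD, n = 3 each), 2.04-fold lower on HFD. The authors' deposited table gives -0.89 (SE 0.20) as its log2 fold change.

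**Figure D1:**
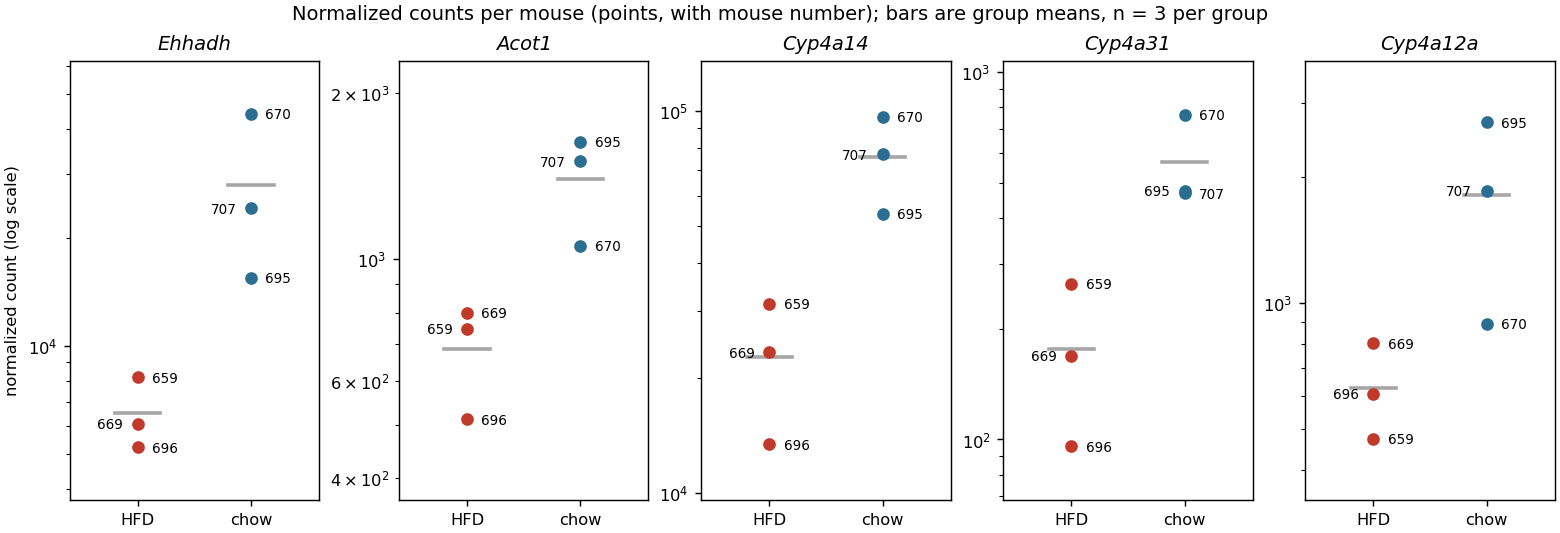
Normalized counts (vertical axis, log scale, own range per gene) of the 5 genes in each mouse, with 3 HFD mice left and 3 chow mice right in each panel; the numbers are mouse numbers and the grey bars group means. No HFD mouse reaches the lowest chow mouse, and chow mouse 670 is the highest of its group for Ehhadh, Cyp4a14 and Cyp4a31 and the lowest for Acot1 and Cyp4a12a.

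Levels were also divided by the kilobases of exon annotated for each gene, all transcripts pooled, which compares genes only roughly. Cyp4a14 stood first at 8710 ± 3441 on HFD and 29109 ± 8237 on chow, in normalized counts per kilobase (SD, n = 3 each). Ehhadh followed, at 2177 ± 509 on HFD and 9359 ± 4938 on chow on the same scale. Cyp4a12a had 259.5 ± 67.8 on HFD and 749 ± 372 on chow, and Acot1 had 175.1 ± 39.1 on HFD and 357 ± 77.4 on chow. Cyp4a31 came last, at 70.4 ± 33.8 on HFD and 226.7 ± 67.4 on chow. Cyp4a14 and Ehhadh were separated from each other and from the remaining genes by more than their spread on either diet, whereas Cyp4a12a and Acot1 differed by less than their SDs added together on both diets. Acot1 and Cyp4a31 differed by less than their summed SDs on chow and by more on HFD. Sequence shared with related genes was not corrected for, so the places of Cyp4a12a, Acot1 and Cyp4a31 are less certain.

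Cyp4a14 and Ehhadh, the most abundant of the 5, took a large share of the summed difference over the lower rows. Summed over the 121 rows that were lower, the group means of normalized counts were 156172 lower on HFD. Cyp4a14 accounted for 34.0% of that sum and Ehhadh for 13.7%, and the 5 genes together for 49.1%. Higher rows are not in this sum, and Scd1, a fatty acid desaturase gene, alone was higher by more, at 492906 ± 72892 on HFD and 300480 ± 19479 on chow (SD, n = 3 each). Counts are not per length here, so long transcripts weigh more. Cyp4a14 held 67.5% to 76.4% of the 5 genes' summed normalized counts in HFD mice and 67.3% to 73.4% in chow mice.

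The spread among chow mice differed from gene to gene. The coefficient of variation (CV, SD over mean) of Ehhadh was 23.4% among HFD mice and 52.8% among chow mice, and that of Cyp4a12a was 26.1% on HFD and 49.7% on chow. For these genes the chow group was the more variable. Among the 252 diet rows with a mean of at least 100 normalized counts, the median CV was 15.6% on HFD and 19.6% on chow. Ehhadh ranked 7th and Cyp4a12a 12th in chow CV, while Cyp4a31 ranked 60th, Cyp4a14 69th and Acot1 115th. The genes were chosen partly for their spread among chow mice, so high ranks in part restate that choice. Thrsp, a lipogenic gene with a CV of 102.3%, headed that ranking.

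Cyp4a14 and Cyp4a31 showed the opposite balance, with a CV of 39.5% on HFD and 28.3% on chow for Cyp4a14 and of 48.0% on HFD and 29.7% on chow for Cyp4a31. They ranked 13th and 6th of 252 by CV on HFD. Acot1 varied about equally, at 22.3% on HFD and 21.7% on chow. With 3 mice a group, each of these values rests strongly on 1 mouse. Without chow mouse 670 the chow CV of Ehhadh was 30.8% (rank 35), that of Cyp4a12a 26.1% (rank 53), that of Acot1 5.81% and that of Cyp4a31 1.22%. Without HFD mouse 696 the HFD CV was 20.6% for Cyp4a14, 31.2% for Cyp4a31 and 4.61% for Acot1. The HFD CV of Ehhadh was 10.5% without mouse 659 and that of Cyp4a12a 17.4% without mouse 669, and the chow CV of Cyp4a14 was 15.9% without mouse 695.

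**Figure D2:**
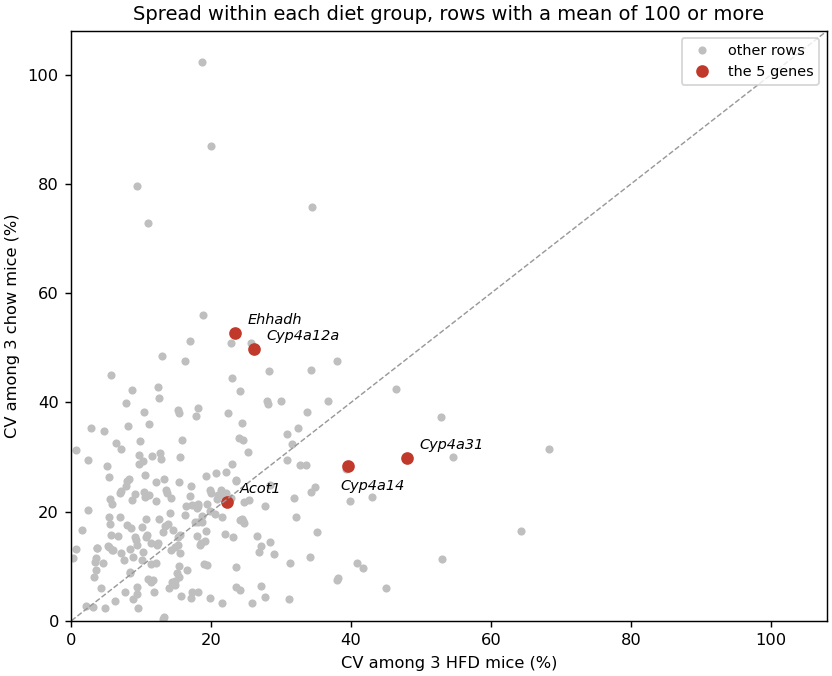
CV among the 3 HFD mice (horizontal, %) against CV among the 3 chow mice (vertical, %) for the 252 diet rows with a mean of at least 100 normalized counts; the dashed line marks equal CV and the 5 genes are red. Ehhadh and Cyp4a12a lie above the line near 50% on the chow axis, Cyp4a14 and Cyp4a31 below it, and Acot1 on it.

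The order of the mice differed between the 5 genes, with mouse 670 at the top or at the bottom of the chow group. In that group, Ehhadh and Cyp4a14 ran 670, 707, 695 from high to low, an order found in 52 of the 252 rows, and Cyp4a31 ran 670, 695, 707 with the last 2 mice nearly level. Acot1 and Cyp4a12a ran the reverse, 695, 707, 670, the most frequent chow order with 68 of 252 rows. Among the 105 of these rows that were lower on HFD, the order of Ehhadh and Cyp4a14 was the most frequent, with 34 rows. The reverse order had 20 of those 105 rows. In the HFD group, Ehhadh, Cyp4a14 and Cyp4a31 all ran 659, 669, 696, as did 50 of 252 rows and 25 of the 105 lower ones. Acot1 and Cyp4a12a were both highest in HFD mouse 669 but differed in the rest of the order, with mouse 696 the lowest for Acot1 and mouse 659 the lowest for Cyp4a12a. An order of 3 mice is a coarse measure and was not tested.

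In log2 units, chow mouse 670 was 0.80 above its group mean for Ehhadh, 0.39 for Cyp4a14 and 0.46 for Cyp4a31. The same mouse deviated by -0.38 for Acot1 and by -0.88 for Cyp4a12a. Mouse 695 deviated by -0.72 for Ehhadh, -0.46 for Cyp4a14 and -0.22 for Cyp4a31, against 0.25 for Acot1 and 0.71 for Cyp4a12a. The deviations of 3 mice from their own mean sum to 0, so those of mouse 695 are not independent of those of mouse 670.

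Likeness of profiles was measured as the root mean square (RMS) difference, in log2 units, between 2 genes' normalized counts over the 6 mice after each gene was centred on its own mean. Since all diet rows were chosen for a difference between these groups, likeness over 6 mice partly restates that choice. Cyp4a14 and Cyp4a31 were each other's nearest rows among the 243 compared, with an RMS difference of 0.18, and Ehhadh was the second nearest of both (0.30 and 0.37). The nearest rows to Ehhadh were in turn Cyp4a14 and Cyp4a31. For comparison, the median RMS difference to the 102 lower rows was 0.73 for Ehhadh, 0.64 for Cyp4a14 and 0.65 for Cyp4a31. That median was 0.65 for Cyp4a12a and only 0.37 for Acot1. The third nearest row lay at 0.35 for Cyp4a14, 0.40 for Cyp4a31 and 0.48 for Ehhadh, not far beyond the second. Cyp4a12a was 0.87 from Cyp4a14 and 0.90 from Cyp4a31, its partners in the cluster. With each diet group centred on its own mean, which removes the diet difference, the RMS difference was still 0.18 between Cyp4a14 and Cyp4a31 and 0.85 between Cyp4a14 and Cyp4a12a.

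Acot1 was nearest to Retsat, which encodes retinol saturase, and to Tmc7, a transmembrane channel-like gene, at RMS differences of 0.15 and 0.16. Retsat had normalized counts of 12228, 9406 and 6841 in HFD mice 659, 669 and 696, against 13874, 23171 and 18980 in chow mice 670, 695 and 707. It shared the chow order of Acot1 and differed in the order of HFD mice 659 and 669. Cyp4a12a was nearest to Cyp1a2, a P450 of drug and caffeine metabolism, and to Gcnt4, an O-glycan branching enzyme gene, at 0.25 and 0.31. Cyp1a2 had normalized counts of 1505, 2622 and 1927 in HFD mice 659, 669 and 696, against 2747, 6141 and 3925 in chow mice 670, 695 and 707. Its order of mice was that of Cyp4a12a in both groups.

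**Figure D3:**
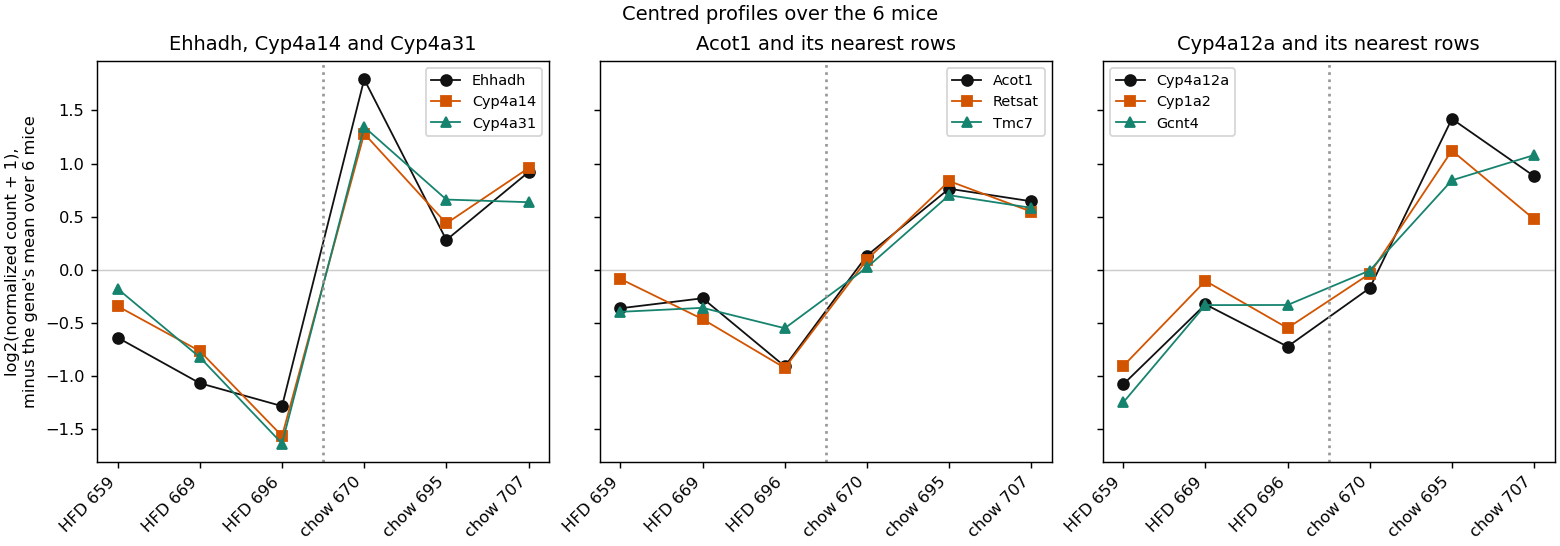
Log2(normalized count + 1) of each gene minus its mean over the 6 mice (vertical axis) in the 3 HFD mice and the 3 chow mice (horizontal axis, dotted line between the diets); lines only join the points of 1 gene, and mice of a group have no order. Ehhadh, Cyp4a14 and Cyp4a31 peak in chow mouse 670, while Acot1 and Cyp4a12a, with their nearest rows, are lowest there within the chow group.

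Ratios of raw counts within a mouse need no scaling between libraries. Cyp4a14 had 118.1, 137.9 and 139.8 reads per read of Cyp4a31 in HFD mice 659, 669 and 696, against 126.3, 112.9 and 164.9 in chow mice 670, 695 and 707. The mean ratio was 131.9 ± 12.05 on HFD and 134.7 ± 26.97 on chow (SD, n = 3 each), a difference smaller than the spread on either diet, while the level of both genes was more than 3-fold lower. Counting error alone gives a 95% interval (exact Clopper-Pearson) of 115.8 to 170.3 in HFD mouse 696 and of 149.2 to 182.7 in chow mouse 707, and such intervals cover counting error only. The ratio of Cyp4a14 to Ehhadh was 3.82, 3.84 and 2.56 in HFD mice 659, 669 and 696, against 2.18, 3.47 and 3.20 in chow mice 670, 695 and 707. Its means, 3.41 ± 0.73 on HFD and 2.95 ± 0.68 on chow (SD, n = 3 each), differed by less than the spread between mice.

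Other ratios varied more among chow mice. Ehhadh had 10.9, 7.60 and 10.2 reads per read of Acot1 in HFD mice 659, 669 and 696, against 41.8, 9.46 and 16.0 in chow mice 670, 695 and 707, so the values spanned 1.44-fold on HFD and 4.42-fold on chow. The ratio in chow mouse 695 lay within the range of the HFD mice. Cyp4a14 to Cyp4a12a spanned 2.99-fold among HFD mice and 5.43-fold among chow mice, there from 19.9 in mouse 695 to 108.1 in mouse 670. Cyp4a12a to Acot1, which share a chow order, spanned 1.87-fold among HFD mice and 1.95-fold among chow mice. On HFD that was wider than the span of Ehhadh to Acot1, whose mouse orders differ. The RMS difference among HFD mice alone was likewise smaller between Acot1 and Ehhadh (0.23) than between Acot1 and Cyp4a12a (0.38).

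**Figure D4:**
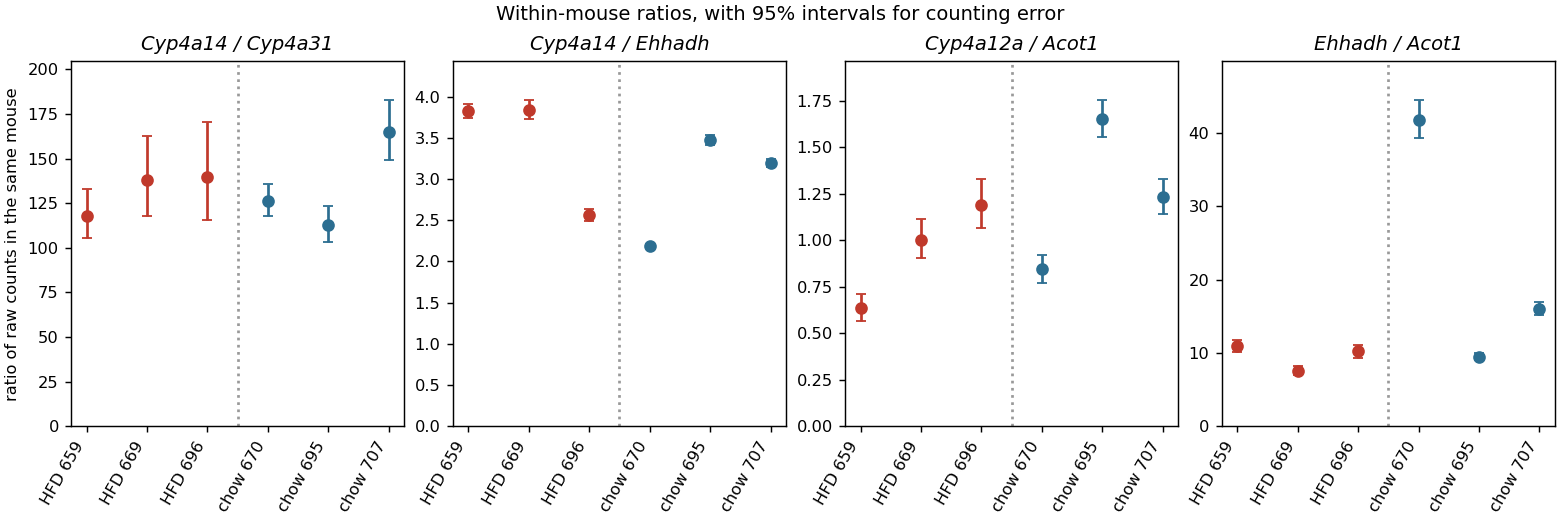
Ratio of raw counts of 2 genes in the same mouse (vertical axis, from 0) for HFD mice left and chow mice right of the dotted line; bars are 95% exact intervals for counting error. Cyp4a14 over Cyp4a31 stays between 112.9 and 164.9 in all 6 mice, while Ehhadh over Acot1 reaches 41.8 in chow mouse 670.

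Other genes of fatty acid oxidation were read from 5 lists. Over all genes tested, 0.484% were rows called lower and 0.861% rows called higher. Of the 31 peroxisomal oxidation genes reported, 2 were called lower by the authors' test, and 29 are not among the rows. Besides Ehhadh, Hacl1, which encodes a lyase of peroxisomal alpha-oxidation, was lower, at 249.5 ± 67.7 on HFD and 493 ± 31.4 on chow (SD, n = 3 each). Of 20 Cyp4 genes, 3 were lower, all of them described above, and 0 higher.

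Of 16 acyl-CoA thioesterases, Acot1 was lower and Acot11, which encodes an enzyme also named Them1, was higher. Acot11 averaged 379 ± 117 on HFD and 121.7 ± 41.7 on chow (SD, n = 3 each), 3.12-fold higher on HFD. The 26 mitochondrial oxidation and ketogenesis genes had 1 called row, the acyl-CoA dehydrogenase family gene Acad10, higher at 581 ± 73.0 on HFD and 353 ± 65.8 on chow (SD, n = 3 each). Of 32 other PPARalpha targets, 4 were higher and 2 lower. The higher ones were the fatty acid transporter Cd36 (2.90-fold), the lipolysis inhibitor G0s2 (2.17-fold), the lipid droplet coat gene Plin4 (2.02-fold) and Txnip, which encodes the thioredoxin-interacting protein (2.002-fold). Retsat and the droplet coat gene Plin5 were lower, by 1.97-fold and 1.85-fold.

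With the 5 genes set aside, 6 of the 113 listed genes reported were called higher and 3 lower, with a median deposited log2 fold change of 0.83 over the 9 called, against 0.77 over all 336 rows. Those called higher were Acot11, Acad10, Cd36, G0s2, Plin4 and Txnip. Rows called higher took 0.861% of the genes tested and rows called lower 0.484%. The last of the 336 listed genes was by estimate the 404th by p-value. Some genes that passed the authors' test therefore have no row, and these shares are lower bounds. A listed gene without a row may still have been called. The level of a listed gene without a row is not known here. The smallest absolute log2 fold change in the authors' deposited table is 0.60 and its largest adjusted p is 0.0474.

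**Figure D5:**
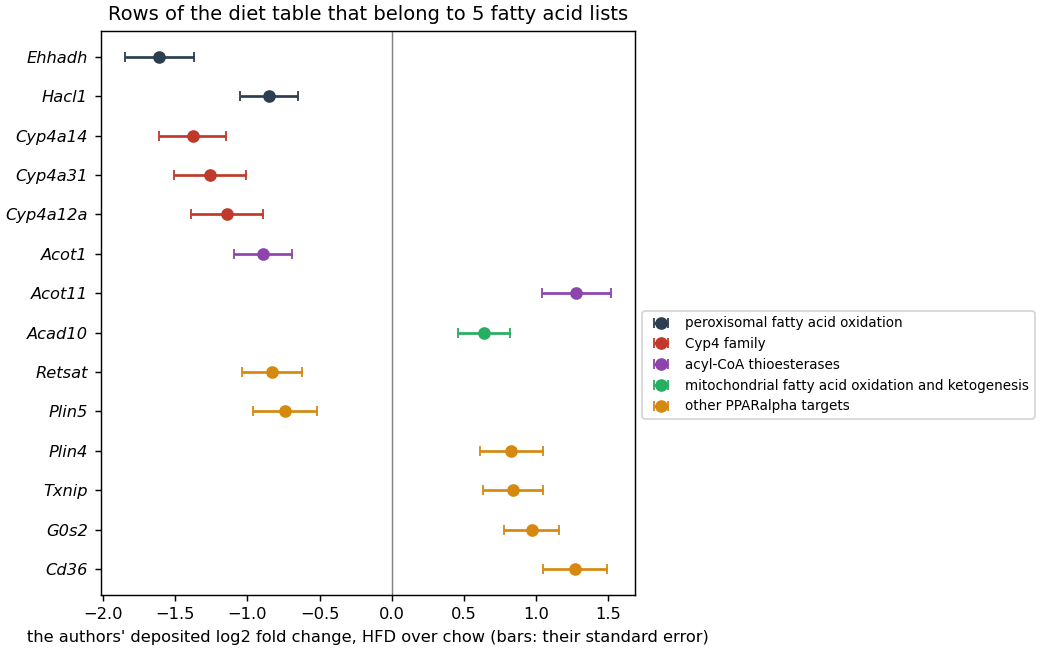
The authors' deposited log2 fold change, HFD over chow (horizontal axis; bars are their standard errors), for the 14 diet rows reported that belong to 5 fatty acid lists, in colours by list. The 5 genes described here lie between -1.61 and -0.89, and 6 of the other 9 lie above 0.

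Cyp4a12a was also read beside sex-biased liver genes. Of 22 genes with a known male bias, 3 were lower on HFD (Cyp4a12a, Gstp1 and Mup20) and 0 higher, with Cyp4a12a there by choice. For comparison, 0.484% of all genes tested were rows called lower and 0.861% rows called higher. Of 21 with a known female bias, 4 were higher (Cyp2a4, Hao2, Cyp2b13 and Fmo2) and 1, Cyp39a1, was lower. Sums over these lists cover only the genes that are diet rows. All 3 male-biased rows were called lower, so the gap in their sum restates the authors' selection. The summed normalized counts of the male-biased rows ran from 8409 to 9199 in HFD mice and from 14255 to 21195 in chow mice. Those of the female-biased rows ran from 1260 to 1872 in HFD mice and from 1102 to 1287 in chow mice, so the diets overlapped. That sum includes Cyp39a1, which went the other way, at 360 ± 95.4 on HFD and 718 ± 111 on chow (SD, n = 3 each). For each of the 4 higher genes, every HFD mouse lay above every chow mouse, as in 63.7% of the diet rows (214 of 336). Since 215 rows were higher on HFD, nearly every higher row shows this. Hao2 and Cyp2b13 had low counts. Hao2 averaged 21.7 ± 1.2 on HFD and 1.6 ± 1.5 on chow (SD, n = 3 each). Cyp2b13 averaged 24.4 ± 19.4 on HFD and 0 on chow. The part of these genes in the level of Cyp4a12a was not tested.

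Some markers of other cells also moved with diet. The counts below stand beside 0.861% of all genes tested that were rows called higher and 0.484% that were rows called lower. Of 15 stellate cell and fibrosis markers 6 were higher on HFD, with summed normalized counts of 2328 to 4231 in HFD mice and 977 to 1148 in chow mice. Of 12 macrophage markers, Itgax and Mmp12 (2) were higher, at 71.2 to 119.3 in HFD mice and 12.5 to 25.3 in chow mice. Both sums cover only the markers that are diet rows, so their gap between diets restates the authors' selection. Lymphocyte and adipocyte markers had 0 diet rows. Of 12 markers of pericentral hepatocytes, Avpr1a and Cyp1a2 were lower and Lect2 higher. Of 10 periportal markers, 0 are diet rows. The part of these cell types in the lower levels of the 5 genes was not tested.

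Promoter sequence was held for 2 of the 5 genes, Acot1 and Ehhadh (RefSeq, GRCm38.p6, 250 bases before to 50 after the start). Neither window holds the DR1 motif, the direct repeat of AGGTCA spaced by 1 base that PPARalpha and related receptors bind, on either strand, exactly or with up to 2 mismatches. Of 32851 promoter windows, 0.0396% hold it exactly and 3.86% with up to 2 mismatches. Both windows also lack the unit AGGTCA alone, which is part of that repeat and which 16.3% of windows hold, and TATAAA, which 13.6% hold. These windows say nothing about sites further away.

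The call of these genes as lower depends on the test. The authors' deposited adjusted p was under 0.05 for all 5. In edgeR's quasi-likelihood test on the listed rows, scaled by the recovered size factors and corrected for all 24980 genes, 0 of the 5 passed, with adjusted p from 0.156 for Ehhadh to 0.345 for Cyp4a12a (5 of 5 under 0.05 unadjusted). Genes without a row were ranked below every listed row in that correction, so it can overstate these adjusted p. With the same correction, DESeq2, refitted to the listed rows, called all 5, as did edgeR with TMM scaling. The genes were chosen from rows that the authors' test had called, so these calls and the unadjusted p restate that choice and support nothing. The authors' deposited table has 215 higher and 121 lower calls. In edgeR the calls were 8 higher and 1 lower with the recovered size factors, and 10 higher and 112 lower with TMM. TMM was computed over the listed rows, all of them called genes, and shifted the median log2 fold of all rows by -0.64. Its calls therefore depend on which rows were listed.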

How the data were processed

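Liver RNA was sequenced from 12 mice. The submitters' processing notes name HISAT2, HTSeq and DESeq2, with GRCm38 or mm10 as the build; the sources used here give no roles, versions or settings. Per the file headers, each deposited table holds whole-number read counts for every mouse and gene, next to statistics by the authors (a mean, a log2 fold change with its standard error, and p-values). Only selected genes are listed. The authors' mean was used to solve for each mouse's size factor (largest gap 0.0051 counts). The number of genes tested was estimated from the relation between p and adjusted p.

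The members and lists were chosen with earlier results of these data known. Genes named are the 5 members, their 2 nearest rows and every called gene of the pathway lists; Thrsp, Scd1, Acot2 and the marker genes were named after their values were seen. The call is the authors' adjusted p under 0.05. edgeR 4.0.16 (R 4.3.3), DESeq2 1.42.0, TMM, raw counts, stricter limits and leaving out each mouse were alternatives. edgeR was tested on simulated data. One gene of the peroxisomal list that is a diet row is not reported here, and counts over the lists leave it out. Likeness used a pseudocount of 1. Transcripts and coordinates came from GENCODE M21, in which all 336 IDs were found (322 with identical coordinates). Python was 3.11.15. No per-gene permutation test was run, since 3 mice against 3 cannot give a p below 0.1. P-values cover the spread between these mice.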

Additional observations from a re-analysis of the deposited data

How the results depend on the processing

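The folds of the 5 genes were below 0 in all 60 alternatives, which the choice of genes whose groups do not overlap largely fixes. With TMM and with the median of ratios over the listed rows, which shifted the median log2 fold of all rows by -0.64 and -0.66, the log2 folds were -2.76 and -2.79 for Ehhadh, -1.67 and -1.69 for Acot1, -2.40 and -2.42 for Cyp4a14, and -2.35 and -2.37 for Cyp4a31; Cyp4a12a had -2.17 with the median of ratios. Raw counts shifted that median by 0.13. Leaving out 1 mouse gave -2.39 to -1.61 for Ehhadh, -1.19 to -0.85 for Acot1, -2.04 to -1.47 for Cyp4a14, -2.10 to -1.39 for Cyp4a31 and -1.86 to -1.13 for Cyp4a12a.

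Leaving out 1 mouse, the CV on HFD and on chow ranged from 10.5% to 31.1% and from 30.8% to 68.1% for Ehhadh, from 4.61% to 31.0% and from 5.81% to 30.4% for Acot1, from 20.6% to 56.6% and from 15.9% to 40.3% for Cyp4a14, from 31.2% to 66.2% and from 1.22% to 34.1% for Cyp4a31, and from 17.4% to 36.2% and from 26.1% to 71.1% for Cyp4a12a. Other scalings moved no CV by over 1.5 times.

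Genes called lower and higher (121 and 215; 8 and 6 in the 5 fatty acid lists) numbered 76 and 130 with the authors' adjusted p limited to 0.01, and 35 and 92 (4 and 2 in the lists) at an absolute log2 fold of at least 1. edgeR, adjusted over all genes tested, called 1 and 8 (0 and 0 in the lists, 8 and 6 under 0.05 unadjusted), and the same without a filter. With TMM it called 112 and 10 (8 and 0, with 2 higher unadjusted). DESeq2 called 54 and 105 (6 and 3). edgeR without 1 mouse called 0 to 2 lower and 1 to 7 higher (0 and 0 in the lists). All these refits ranked genes without a row below every listed row, which can reduce their counts of calls. TMM and the median of ratios centre on changed genes. The cause of the other gaps was not tested. No paired analysis was possible because mouse numbers are not shared between groups. Library depth is unknown, so precision rests on the counts given.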
